A study of Mus musculus with 3 samples.

Results

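The genes described here are 7 transcripts best known from rods, counted in wells into which single cones were sorted. They are Sag, Gnat1, Gngt1, Gnb1, Rom1, Reep6 and Prph2, chosen by name from the 31053 genes of the count table. They were read in the 183 of 208 wells that had at least 500 genes counted and no more than 30% mitochondrial counts. Opn1sw, Gnat2 and Gngt2 were read beside them as the cone genes of the same wells.

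The cells were GFP-positive cones sorted from papain-dissociated mouse retina, with a viability dye, into 1 plate per mouse line. The Pde6ccpfl1 line carries a mutation of the catalytic subunit of the cone phosphodiesterase, the Cnga3-/- line is labelled as lacking Cnga3, a cone subunit of the cyclic nucleotide-gated channel, and the wildtype line carries the Chrnb4-GFP reporter. The library names of the mutant lines are Pde6c-GFP and Cnga3-GFP, and the labels do not say which reporter they carry or how many animals were pooled. All 3 libraries are labelled postnatal day 12, while the well names carry a tag that differs between plates (P10 for Pde6ccpfl1, P08 for Cnga3-/- and P11 for wildtype) and whose meaning is not stated. There is 1 library for each genotype, so plate and genotype cannot be told apart, and no test between genotypes was run, since wells of a plate are not replicates.

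In a rod, light activates the visual pigment, which switches on the G protein transducin. Transducin is built from an alpha subunit (Gnat1), a beta subunit (Gnb1) and a gamma subunit (Gngt1), and it activates the rod phosphodiesterase. Rod arrestin (Sag) ends the pigment's activity. Prph2 and Rom1 are related tetraspanins that shape the rims of outer segment discs, and Reep6 is a membrane protein of the endoplasmic reticulum whose retinal form is found in rods. These genes mark rods to different degrees. Gnat1 and Gngt1 have cone counterparts, Gnat2 and Gngt2. Gnb1 is expressed in many cell types, Prph2 and Rom1 also serve cone outer segments, and mouse cones are known to make some Sag. Opn1sw encodes the short-wavelength cone opsin.

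The homeodomain factor CRX, which acts in both rods and cones, binds the core letters TAATCC, and the stretches with these letters are shown because some rod genes and 1 of the cone genes hold them. In RefSeq's GRCm38.p6 table, 5 of the 7 rod genes and 2 of the 3 cone genes had exactly 1 window of 250 bases before the gene start. Gnat1, Reep6 and Gngt2 had either no entry or several, and their windows were not read. The letters TAATCC, on either strand, were in the windows of Sag, Gngt1 and Gnat2, and in 2054 of all 32851 windows (6.25%). The whole window of Sag, chr1.0:87803430.0-87803679.0 on the plus strand, reads from 5′ to 3′ with the match, here as its reverse complement GGATTA, in capitals:
Sag: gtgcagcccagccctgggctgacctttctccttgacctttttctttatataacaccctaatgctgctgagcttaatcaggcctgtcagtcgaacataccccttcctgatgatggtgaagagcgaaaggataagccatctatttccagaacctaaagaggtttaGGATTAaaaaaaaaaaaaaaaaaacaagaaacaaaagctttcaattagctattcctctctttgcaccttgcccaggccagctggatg
The 30 bases around the match are set side by side below for Gngt1 (chr6:3993952-3993981) and the cone gene Gnat2 (chr3:108093035-108093064), both on the plus strand.
Gngt1: tcatattaggggGGATTAtgaagaagcttt
Gnat2: gggacaatccccGGATTAggaaggagctct
The match starts 87 bases before the RefSeq gene start in Sag, 44 bases before it in Gngt1 and 19 bases before it in Gnat2. The GENCODE M21 annotation, used for all gene coordinates below, starts Gngt1 at 3993792 and Gnat2 at 108092789, so these 2 stretches lie inside the gene by that annotation and upstream of it by RefSeq. A match of 6 letters is a description of the sequence and not a binding site.

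Kept wells numbered 61 in Pde6ccpfl1, 70 in Cnga3-/- and 52 in wildtype, and held 273080 to 335499 counts per library. The median well held 3796 counts in Pde6ccpfl1, 4056.5 in Cnga3-/- and 4895 in wildtype. Cnga3 itself had 3 counts in Pde6ccpfl1 (10.2 CPM, counts scaled to a library total of 1000000), 13 counts in 8 wells of Cnga3-/- (38.8 CPM) and 22 counts in wildtype (80.6 CPM). It was thus counted in the library labelled Cnga3-/-, where counts outside the deleted part would check nothing about the genotype. The 3 cone genes set the libraries apart before any rod gene is read. Opn1sw had 27 counts in Pde6ccpfl1, 63 in Cnga3-/- and 0 in wildtype. Gnat2 had 20, 20 and 0 counts in the same order, and Gngt2 had 43, 22 and 0. The wildtype library, labelled as cones, therefore held no count of these 3 defining cone genes, which allows each of them a level of up to 13.5 CPM. The 12 cone markers together had 221 counts in Pde6ccpfl1, 260 in Cnga3-/- and 54 in wildtype, with 5 of the 12 at 0 in wildtype. Exons of Opn1sw overlap exons of Calu, and exons of Gngt2 overlap exons of Abi3, on the opposite strand. Whether counting used strand is not given in the sources used here, so the counts of each such pair may be mixed. Abi3 itself had 0 counts in each library, and Calu had 54 counts in Pde6ccpfl1, 60 in Cnga3-/- and 99 in wildtype. Across plates, 43 well positions were kept in all 3, and no pair of wells held identical counts.

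The 7 rod genes together were 2.68-fold higher in Pde6ccpfl1 than in wildtype and 3.72-fold higher in Cnga3-/- than in wildtype. They summed to 113 counts in Pde6ccpfl1, 178 in Cnga3-/- and 39 in wildtype. On the CPM scale these sums were 383 (316 to 461), 531 (456 to 615) and 143 (102 to 195) in that order, where each range is an exact 95% Poisson interval. The ratio to wildtype had an exact 95% interval of 1.85 to 3.97 in Pde6ccpfl1 and 2.62 to 5.40 in Cnga3-/-. The sum in Pde6ccpfl1 was 0.722 (0.565 to 0.919) times that in Cnga3-/-. All of these intervals cover counting error only, since counts may not be independent molecules and 1 library gives no spread between animals. Cone markers moved with the rod sums, being 3.79-fold (2.80 to 5.20) and 3.92-fold (2.91 to 5.36) higher than in wildtype. Their part in the rod result was not tested.

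Counted gene by gene, 5 of the 7 rod genes stood 2-fold or more above wildtype in Pde6ccpfl1 and 0 stood 2-fold or more below it. In Cnga3-/-, 6 of 7 stood above and 0 below. Among all genes with at least 10 counts over both libraries, 15.5% stood 2-fold or more above and 17.0% below wildtype in Pde6ccpfl1. In Cnga3-/- over wildtype these shares were 16.1% and 15.1%. The filter of 10 counts kept 6 rod genes in each of these comparisons, of which 4 and 5 were higher. Sag alone had 10 counts in wildtype, so the other 5 passed only through the mutant libraries, and their share is no support for a difference. The median log2 ratio to wildtype of the 6 rod genes kept by the filter was 1.82 in Pde6ccpfl1 and 2.89 in Cnga3-/-. Over all genes kept by it the medians were -0.11 and -0.13. For the same reason the rod medians are no support for a difference. Between the mutants, in Pde6ccpfl1 over Cnga3-/-, 0 rod genes were 2-fold or more higher and 2, Gnat1 and Reep6, were 2-fold or more lower, beside 10.1% and 14.2% of all genes. Both mutant comparisons share the wildtype library.

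**Figure D1:**
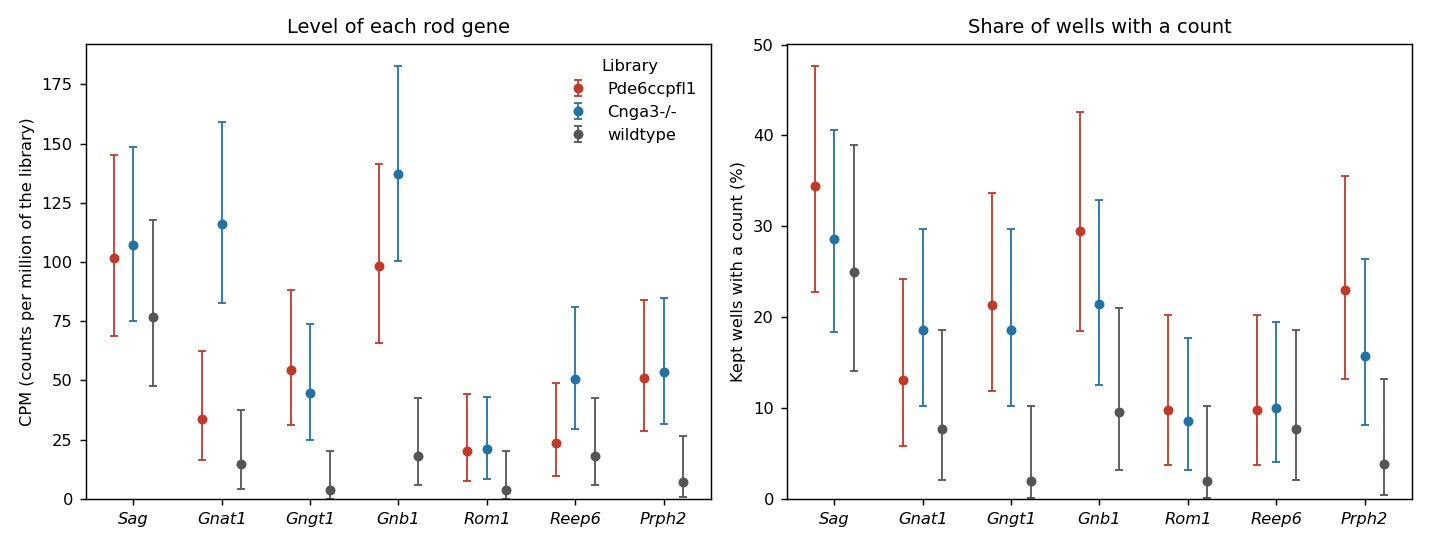
Level (left, CPM of the library, exact 95% Poisson interval) and share of kept wells with a count (right, percent, exact 95% binomial interval) of each rod gene in the Pde6ccpfl1, Cnga3-/- and wildtype libraries. Sag lies between 76.9 and 107 CPM in all 3 libraries, while Gngt1 and Gnb1 lie below 20 CPM in wildtype and above 40 CPM in both mutant libraries.

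Rod arrestin lay within counting error of its wildtype level in both mutant libraries. Sag (ENSMUSG00000056055.13, chromosome 1, 87803680 to 87845158 in GRCm38) had 30 counts in 21 wells of Pde6ccpfl1, 36 counts in 20 wells of Cnga3-/- and 21 counts in 13 wells of wildtype. Its levels of 102, 107 and 76.9 CPM overlapped within counting error. The ratio to wildtype was 1.32 (0.732 to 2.43) in Pde6ccpfl1 and 1.40 (0.793 to 2.52) in Cnga3-/-. A single wildtype well held 8 of the 21 wildtype counts, and without the well of most rod counts in each library the ratios were 1.82 (0.903 to 3.86) and 2.19 (1.13 to 4.49). Sag made up over 50% of the rod counts of wildtype, 21 of 39. Without it the other 6 genes summed to 83 counts in Pde6ccpfl1, 142 in Cnga3-/- and 18 in wildtype, and their ratio to wildtype was 4.27 (2.54 to 7.55) in Pde6ccpfl1 and 6.42 (3.92 to 11.2) in Cnga3-/-.

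The subunits of rod transducin carried much of the difference, each with its own pattern. Gnat1, the alpha subunit (ENSMUSG00000034837.12, chromosome 9, 107674474 to 107679712), had 10 counts in 8 wells of Pde6ccpfl1, 39 counts in 13 wells of Cnga3-/- and 4 counts in 4 wells of wildtype. The Cnga3-/- level of 116 CPM stood apart from both 33.9 CPM in Pde6ccpfl1 and 14.7 CPM in wildtype. Gnat1 in Cnga3-/- was 7.94-fold (2.86 to 30.6) above wildtype, while the ratio in Pde6ccpfl1 to wildtype, 2.31, had an interval that spans 1 (0.668 to 10.1). Gnat1 in Pde6ccpfl1 was 0.292 times (0.130 to 0.595) its level in Cnga3-/-. That difference rested on few wells: without the 3 wells of most rod counts in each library the ratio was 0.542 (0.187 to 1.41).

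Gngt1, the gamma subunit (ENSMUSG00000029663.10, chromosome 6, 3993792 to 3997436), had 16 counts in Pde6ccpfl1 and 15 in Cnga3-/-, each spread over 13 wells, and 1 count in wildtype. Its levels were 54.2, 44.7 and 3.66 CPM in that order. The mutant libraries lay close together and far above wildtype, and no well held more than 3 counts. The ratio to the single wildtype count was 14.8 (2.30 to 621) in Pde6ccpfl1 and 12.2 (1.88 to 514) in Cnga3-/-. Gnb1, the beta subunit (ENSMUSG00000029064.15, chromosome 4, 155491361 to 155559269), had 29 counts in 18 wells of Pde6ccpfl1, 46 counts in 15 wells of Cnga3-/- and 5 counts in 5 wells of wildtype. Its ratio to wildtype was 5.37 (2.06 to 17.8) in Pde6ccpfl1 and 7.49 (2.99 to 24.2) in Cnga3-/-. Both intervals lay above 1, and they stayed above 1 without the 3 wells of most rod counts in each library, at 4.03 (1.33 to 16.4) and 4.43 (1.52 to 17.6).

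The disc-rim tetraspanins were higher in both mutant libraries, Prph2 beyond counting error and Rom1 not. Prph2 (ENSMUSG00000023978.5, chromosome 17, 46910459 to 46924933) had 15 counts in 14 wells of Pde6ccpfl1, 18 counts in 11 wells of Cnga3-/- and 2 counts in 2 wells of wildtype. Its ratio to wildtype was 6.94 (1.62 to 62.6) in Pde6ccpfl1 and 7.33 (1.75 to 65.1) in Cnga3-/-. Rom1 (ENSMUSG00000071648.4, chromosome 19, 8927391 to 8929356) had 6 counts in 6 wells of Pde6ccpfl1, 7 counts in 6 wells of Cnga3-/- and 1 count in wildtype, and both of its intervals against wildtype span 1 (0.674 to 256 and 0.732 to 257). Reep6, the endoplasmic reticulum protein (ENSMUSG00000035504.16, chromosome 10, 80329953 to 80336441), had 7 counts in 6 wells of Pde6ccpfl1, 17 counts in 7 wells of Cnga3-/- and 5 counts in 4 wells of wildtype. One Cnga3-/- well held 8 of its 17 counts. Reep6 was 1.30 times (0.354 to 5.18) its wildtype level in Pde6ccpfl1 and 2.77 times (0.980 to 9.59) in Cnga3-/-. Between the mutants Reep6 changed direction with the wells used: its Pde6ccpfl1 over Cnga3-/- ratio was 0.468 (0.164 to 1.19) in all kept wells and 1.63 (0.444 to 6.50) without the 3 wells of most rod counts in each library.

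Levels of different genes were compared per kilobase of exon, with the 1133 olfactory receptor genes, known from the sense of smell, as a measure of the level that genes foreign to the retina reached on average in these libraries. This scaling takes counts to rise with exon length, which was not tested for this library method, so the order of genes and the olfactory comparison are conditional on it. The 7 rod genes together stood at 14.3 CPM per kilobase in Pde6ccpfl1 (11.8 to 17.2), 19.8 in Cnga3-/- (17.0 to 23.0) and 5.34 in wildtype (3.80 to 7.30). Olfactory receptor genes stood at 4.17, 3.61 and 4.51 CPM per kilobase in the same libraries. The rod genes of wildtype thus lay within counting error of this mean level, and those of the mutant libraries lay above it. The mean is carried by a minority of olfactory receptor genes, since 585, 509 and 589 of the 1133 had 0 counts in Pde6ccpfl1, Cnga3-/- and wildtype. The median olfactory receptor gene stood at 0, 0.69 and 0 CPM per kilobase, below the median rod gene in each library (13.4, 17.9 and 4.29), wildtype included. Gene by gene, the 95% interval lay above the olfactory level for 6 of 7 rod genes in Pde6ccpfl1 (Reep6 was the exception), for 7 of 7 in Cnga3-/- and for 1 of 7, Sag, in wildtype. Of all 30477 genes with an exon length, 11.2% in Pde6ccpfl1, 13.1% in Cnga3-/- and 10.5% in wildtype had an interval above the same level. Many of these genes had no count, whereas all 7 rod genes had one in each library. Among genes with a count the shares were 19.55%, 21.61% and 18.87%. Of the olfactory receptor genes themselves, 5.65%, 6.97% and 5.38% had an interval above that level. In Pde6ccpfl1 the order per kilobase ran from Gnb1 at 23.0 (15.4 to 33.1) to Reep6 at 9.47 CPM per kilobase (3.81 to 19.5), and even these ends overlapped. In Cnga3-/- it ran from Gnat1 at 38.4 and Gnb1 at 32.1, which did not differ beyond counting error, to Sag at 12.1 CPM per kilobase (8.44 to 16.7). Without length scaling the order differed. Sag had the highest level in Pde6ccpfl1, at 102 CPM, and stood at 107 CPM in Cnga3-/-, beside 116 for Gnat1 and 137 for Gnb1. In wildtype the highest was Sag at 8.64 CPM per kilobase (5.35 to 13.2) and the lowest Gngt1 at 1.04 (0.0264 to 5.81). The 3 cone genes stood at 41.1 CPM per kilobase in Pde6ccpfl1 and 42.1 in Cnga3-/-, above the rod genes of the same wells, and were at 0 in wildtype.

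**Figure D2:**
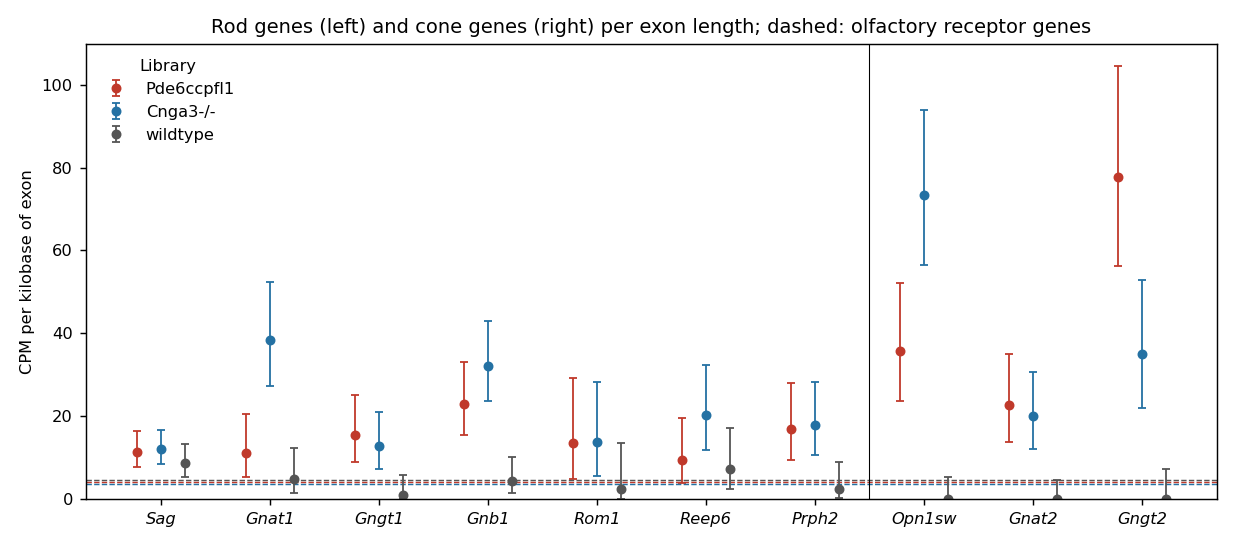
CPM per kilobase of exon of each rod gene (left of the line) and cone gene (right), with exact 95% Poisson intervals, for the Pde6ccpfl1, Cnga3-/- and wildtype libraries. The dashed lines give the olfactory receptor genes of each library, at 4.17, 3.61 and 4.51 CPM per kilobase, which 6 of 7, 7 of 7 and 1 of 7 rod gene intervals lie above.

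Rod transcripts were found in a large share of wells of the mutant libraries. Before any correction for depth, 48 of 61 wells in Pde6ccpfl1 (78.7%), 48 of 70 in Cnga3-/- (68.6%) and 22 of 52 in wildtype (42.3%) held a count of any rod gene. For scale, lists of markers of other cell types were also counted in many wells. Horizontal cell markers, the most widespread of these lists, were in 59.0%, 55.7% and 75% of wells in the same order. Microglia markers were in 14.8%, 18.6% and 19.2%. Wells with a rod count were deeper: their median was 4868.5 counts against 1626 in the other wells of Pde6ccpfl1, 4250 against 3359.5 in Cnga3-/- and 6929.5 against 4026.5 in wildtype. After each well was thinned at random to 1400 counts, which left out 7, 5 and 4 shallower wells, the share was 44.4% in Pde6ccpfl1 (24 of 54 wells, exact 95% binomial interval 30.9 to 58.6). It was 41.5% in Cnga3-/- (27 of 65, 29.4 to 54.4) and 10.4% in wildtype (5 of 48, 3.47 to 22.7). These are shares of 1 random thinning. The mean over all thinnings was 41.2% in Pde6ccpfl1, 36.9% in Cnga3-/- and 16.2% in wildtype, so the wildtype draw lay low. In either reading the mutant shares lay above that of wildtype. In the draw, 4 wildtype wells held Sag and 1 held Reep6. The other 5 rod genes were at 0 of its 48 wells, which allows a share of wells with a count of up to 7.40%, although each of them had 1 to 5 counts in the unthinned wells.

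Most wells with a rod transcript held very little of it. Exactly 1 rod count was found in 21 wells of Pde6ccpfl1, 22 of Cnga3-/- and 15 of wildtype. At the other end, 5 wells of Pde6ccpfl1, 9 of Cnga3-/- and 2 of wildtype held 5 or more rod counts. The 5 wells with the most rod counts held 30.1% of all rod counts in Pde6ccpfl1, 50% in Cnga3-/- and 51.3% in wildtype, so the rod counts of Cnga3-/- and wildtype were the more concentrated.

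The wells richest in rod transcripts in Cnga3-/- held Gnat1 and Gnb1 together. The richest held 31 rod counts among 1237 counts and 571 genes: 12 of Gnb1, 9 of Gnat1, 8 of Reep6 and 2 of Rom1, with 0 counts of Opn1sw, Gnat2 and Gngt2. The next held 18 rod counts among 2657, with 9 of Gnat1, 4 of Reep6, 3 of Prph2 and 1 each of Gnb1 and Sag, beside 1 count of Opn1sw. The third held 10 counts of Gnb1 and 6 of Gnat1 among 3922, and no count of the 3 cone genes. These wells were not deep wells, since the first held few more than the 1134 counts of the shallowest kept well of that library. Over the 70 Cnga3-/- wells, Pearson's r of counts was 0.72 between Gnat1 and Gnb1, 0.77 between Gnat1 and Reep6 and 0.61 between Gnb1 and Reep6. It was -0.03 between Sag and Gnat1 and -0.02 between Gngt1 and Gnat1. The wells share a plate and differ in depth, and the high values rest on these few wells. In Pde6ccpfl1 the richest well held 12 rod counts among 5478 (6 of Gnb1, 4 of Sag and 2 of Gnat1), and in wildtype it held 8 counts, all of Sag, among 9288.

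The summed difference from wildtype did not rest on the richest wells, but the difference between the mutants did. Without the 3 wells of most rod counts in each library, the sum in Pde6ccpfl1 was 3.46-fold (2.17 to 5.74) and that in Cnga3-/- 3.79-fold (2.40 to 6.22) higher than in wildtype. Pde6ccpfl1 over Cnga3-/- was then 0.914 (0.685 to 1.22), against 0.722 with all wells. Without the single richest well of each library it was already 0.793 (0.610 to 1.03).

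**Figure D3:**
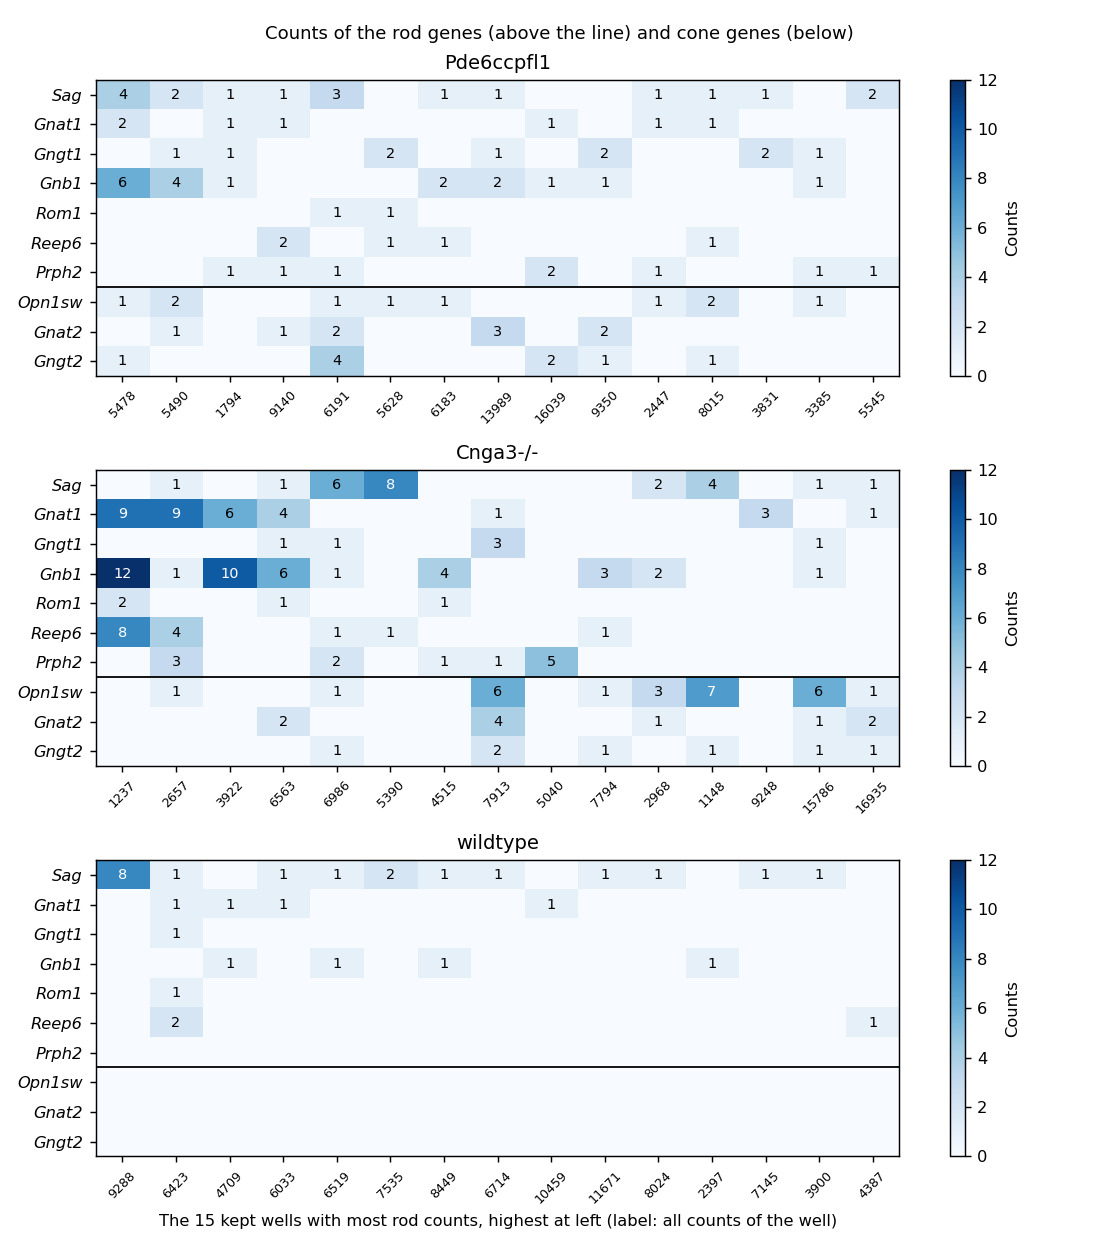
Counts (color, scale at the right) of the 7 rod genes, above the line, and of the 3 cone genes, below it, in the 15 kept wells with the most rod counts of each library, from Pde6ccpfl1 to Cnga3-/- to wildtype, with the total count of each well on the axis. In Cnga3-/- the first 3 wells hold 31, 18 and 16 rod counts, mostly of Gnat1 and Gnb1, with 1 cone count among them, while wildtype wells have no cone count.

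Rod and cone counts fell in the same wells about as often as their separate shares give, with a small excess in Pde6ccpfl1 both thinned and unthinned. In thinned wells of Pde6ccpfl1, 13 held both a rod count and a count of Opn1sw, Gnat2 or Gngt2, 11 a rod count alone, 10 a cone count alone and 20 neither. The product of both shares within 3 bins of depth gives 10.4 wells with both. In thinned Cnga3-/- wells the numbers were 12, 15, 13 and 25, where the product gives 10.6. A rod count was found in 56.5% of thinned Pde6ccpfl1 wells with a cone count (34.5 to 76.8) and in 35.5% of those without (19.2 to 54.6). In Cnga3-/- it was found in 48% of wells with a cone count (27.8 to 68.7) and in 37.5% of those without (22.7 to 54.2). At 1400 counts the higher share in both libraries was in wells with a cone count, but the intervals overlap widely. In Pde6ccpfl1 the direction was the same unthinned, with 85.7% (71.5 to 94.6) in wells with a cone count against 63.2% (38.4 to 83.7) without. Those intervals overlap too, and depth is not removed from them. In Cnga3-/- the direction turned at other depths, with 43.5% in wells with a cone count against 55.6% in those without at 2500 counts, and 68.3% against 69.0% unthinned. With all counts kept, 36 Pde6ccpfl1 wells and 28 Cnga3-/- wells held both, against products of 33.4 and 28.0. No wildtype well had a count of the 3 cone genes, so all 22 wildtype wells with a rod count lacked them.

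The 3 cone genes gave different pictures at this depth. In Pde6ccpfl1, with all counts kept, a rod count was found in 24 of the 26 wells with Gngt2 (92.3%, 74.9 to 99.1), against 68.6% (50.7 to 83.2) of wells without it. The same shares for Opn1sw were 80% (56.3 to 94.3) and 78.0% (62.4 to 89.4). In Cnga3-/- the shares were 73.7% with and 66.7% without Gngt2, and 70.6% with and 66.7% without Opn1sw. For Gnat2 they were 85.7% with and 76.6% without it in Pde6ccpfl1, and 61.5% with and 70.2% without it in Cnga3-/-. In each of these pairs the intervals overlap, and depth is not removed from them. Pearson's r between summed rod and summed cone counts was 0.19 over 61 wells of Pde6ccpfl1 and -0.01 over 70 wells of Cnga3-/-, and 0.05 and 0.04 after thinning, values too weak in such sparse counts to be read as a relation.

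The amount of rod transcript, unlike its presence, was uneven in Cnga3-/-. Wells with a cone count held 391 CPM of the rod genes in Pde6ccpfl1 (314 to 482, 42 wells), against 357 (231 to 527) in the 19 wells without one. In Cnga3-/- wells with a cone count held 391 CPM (313 to 482, 41 wells), and the 29 wells without one held 816 (656 to 1003). The richest well decides much of this gap: without it, wells with a cone count in Cnga3-/- held 391 CPM and those without 541 (412 to 698). Without the 3 richest wells the values were 315 (245 to 398) and 409 (296 to 551), which overlap, and without the 5 richest they were 220.1 (161 to 294) and 409 (296 to 551).

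**Figure D4:**
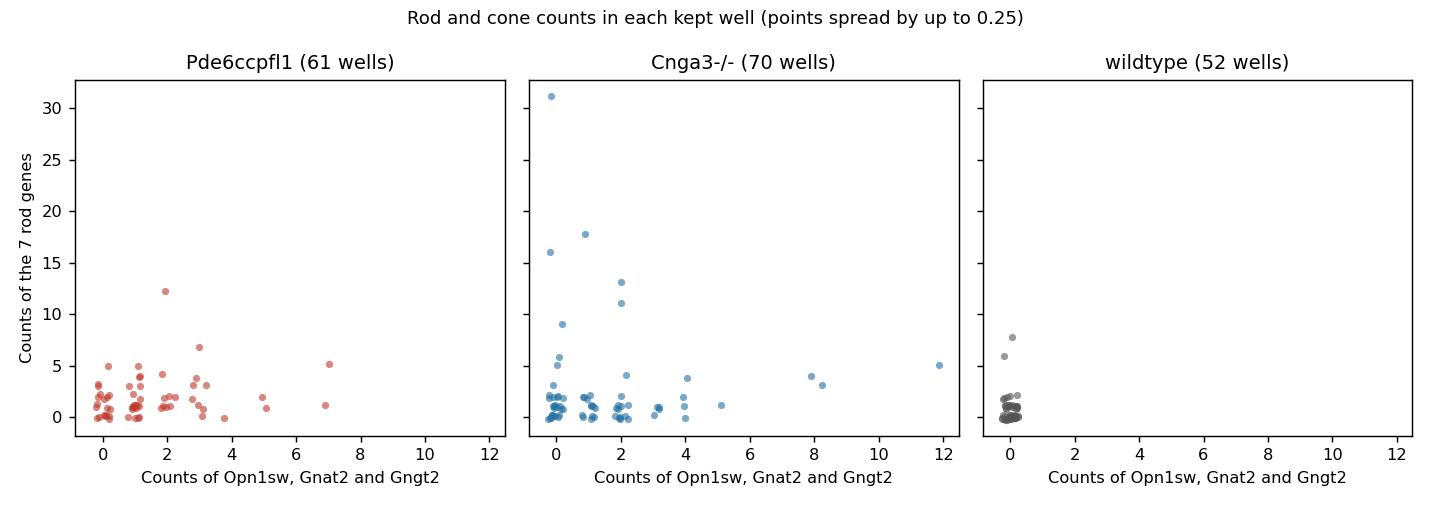
Counts of the 7 rod genes (vertical axis) against counts of Opn1sw, Gnat2 and Gngt2 (horizontal axis) in each kept well of the Pde6ccpfl1, Cnga3-/- and wildtype libraries, with points spread slightly so that equal values can be seen. Wells with both kinds of count number 36 in Pde6ccpfl1 and 28 in Cnga3-/-, the Cnga3-/- well with 31 rod counts has no cone count, and all wildtype wells lie at 0 cone counts.

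Other rod genes followed the same order more weakly and not uniformly. The 12 other rod genes read here summed to 183 counts in Pde6ccpfl1, 238 in Cnga3-/- and 116 in wildtype, which is 1.46-fold (1.15 to 1.86) and 1.67-fold (1.33 to 2.10) above wildtype. Of the 8 with at least 10 counts over both libraries, 3 were 2-fold or more higher and 1 lower in Pde6ccpfl1 than in wildtype, beside the 15.5% and 17.0% of all genes. In Cnga3-/-, 3 of 8 were higher and 2 lower, beside 16.1% and 15.1%. Counted without that filter, the 12 genes gave 5 higher and 1 lower in Pde6ccpfl1, and 6 higher and 2 lower in Cnga3-/-. Pde6g, the inhibitory subunit of the rod phosphodiesterase, had 45 counts in Pde6ccpfl1, 50 in Cnga3-/- and 1 in wildtype. Samd7, a regulator of photoreceptor gene silencing, had 33, 63 and 10 counts in the same order. A single well held 16 of its 33 counts in Pde6ccpfl1 and another 29 of its 63 in Cnga3-/-. Pde6a, the catalytic alpha subunit of the rod phosphodiesterase, went the other way with 21, 34 and 42 counts, a ratio to wildtype of 0.463 (0.260 to 0.799) in Pde6ccpfl1 and of 0.659 (0.407 to 1.06) in Cnga3-/-. So did the rod exchanger Slc24a1 with 14, 7 and 21 counts, a ratio of 0.271 (0.0974 to 0.663) in Cnga3-/-. A single wildtype well held 12 of the 21 wildtype counts of Slc24a1, and no ratio without it was computed. In Pde6ccpfl1, Pde6g and Pde6a, subunits of the same rod enzyme, thus lay on opposite sides of the wildtype level beyond counting error, while in Cnga3-/- the interval of Pde6a spans 1.

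Summed, the 24 genes shared by rods and cones did not follow the order of the rod sums. They were 1.16 times (1.05 to 1.28) their wildtype level in Pde6ccpfl1 and 0.856 times (0.773 to 0.949) in Cnga3-/-. Abca4 held 541 of their 911 counts in Pde6ccpfl1, 359 of 767 in Cnga3-/- and 493 of 729 in wildtype. Of the shared genes with at least 10 counts over both libraries, 6 of 13 were 2-fold or more above wildtype in Pde6ccpfl1. In Cnga3-/- 9 of 17 were, and 0 were 2-fold or more below in either. Of all genes, 15.5% and 16.1% were above and 17.0% and 15.1% below. The filter admitted genes with few wildtype counts, so these numbers are no support for a difference. Among the shared genes that were 2-fold apart, the retinoid-binding protein gene Rbp3 was 2.59-fold (1.22 to 5.98) higher in Pde6ccpfl1 than in wildtype, at 28 against 10 counts. Rgs9, which speeds the shut-off of transducin, had 3 counts in Pde6ccpfl1, 28 in Cnga3-/- and 0 in wildtype, and was at least 7.60-fold higher in Cnga3-/- than a floor of 3 counts over the wildtype library. Cdhr1, a cadherin of the outer segment, had 4, 27 and 1 counts in the same order. Rgs9 and Cdhr1, like Gnat1, stood highest in Cnga3-/-. The retinol dehydrogenase gene Rdh12 had 133, 64 and 104 counts and was lowest there, but 1 well of each library held 67, 35 and 48 of them.

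The wells with 5 or more rod counts were read for genes that had not chosen them. In the 9 such wells of Cnga3-/-, the 12 other rod genes had 1357 CPM (1035 to 1746), against 611 (525 to 708) in the other 61 wells. The 2 wells of most rod counts held 10 and 19 of these 60 counts, and no value without them was computed. The 12 cone markers had 1244 CPM (937 to 1619) against 704 (611 to 807), but 2 wells held 39 of their 55 counts, and the other 7 had 546 CPM (312 to 886), an alternative added after the data were seen. Opn1sw, Gnat2 and Gngt2 together had 384 CPM (224 to 616) against 302 (242 to 372), which overlap. Bipolar markers had 45.2 CPM (5.48 to 163) against 182 (136 to 238), Muller glia markers 113 (36.7 to 264) against 148 (107 to 199), and amacrine markers 67.8 (14.0 to 198) against 127 (89.4 to 175). Of the lists of other cell types in Cnga3-/-, none had an interval above that of the remaining wells. In the 5 such wells of Pde6ccpfl1, the other rod genes had 854 CPM (547 to 1271) against 596 (507 to 696), a difference within counting error. Horizontal cell markers there had 676 CPM (407 to 1056) against 333 (268 to 410), intervals that just meet. In the 2 such wells of wildtype, the other rod genes had 1464 CPM (928 to 2197) against 361 (292 to 443), and Muller glia markers 700.1 CPM (350 to 1253) against 179 (131 to 238). Both intervals there lay above those of the other 50 wells. Of the 23 counts of other rod genes in the 2 rich wells, however, 1 well held 16, from 3 genes. The part of the Muller glia markers in the rod counts was not tested.

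Summed markers of other cell types lay nearer to wildtype than the 7 rod genes did. In Pde6ccpfl1 over wildtype the ratio was 1.05 (0.661 to 1.67) for 10 bipolar markers, 0.552 (0.350 to 0.859) for 10 Muller glia markers and 0.847 (0.647 to 1.11) for 7 horizontal cell markers. In Cnga3-/- over wildtype it was 1.18 (0.765 to 1.83), 0.685 (0.457 to 1.02) and 0.711 (0.540 to 0.933) in the same order. The largest ratios were those of 5 endothelium and pericyte markers, 1.56 (0.812 to 3.10) in Pde6ccpfl1 and 1.83 (0.991 to 3.54) in Cnga3-/-, whose intervals span 1. No gene stood out as sharing its wells with the rod genes. By the phi coefficient over thinned wells, averaged over libraries, the 5 genes most alike among 1318 ranked were Spry1 at 0.28, Fam135b at 0.26, Rpa2 at 0.25, Mzf1 at 0.225 and Gm42418 at 0.22. The cone genes Gngt2 and Opn1sw ranked 344 and 454, each over the 2 mutant libraries. Coefficients this weak in sparse counts are no finding.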

How the data were processed

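Single sorted cells of 3 mouse lines were sequenced in 1 plate each with an adaptation of SMARTseq2 and MARS-seq, per the labels' protocols. The authors deposited raw counts per gene and well, in a table of 31053 genes and 208 wells. featureCounts (version not given) and the build GRCh38 are named in the submitters' processing notes. That build is human while the gene names are mouse symbols, so coordinates and exon lengths were taken from GENCODE M21 (GRCm38), where 98.1% of the names matched. The aligner and the handling of molecular identifiers are not given in the sources used here.

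Each well was matched to its library by its column name, and 0 columns were left unused. Wells were kept with at least 500 genes and at most 30% mitochondrially encoded counts. The authors' counts were summed per library and scaled to a library total of 1000000 (CPM). Ratios have exact 95% intervals conditional on both counts, CPM exact Poisson intervals, and shares exact Clopper-Pearson intervals, all for counting error only. A library at 0 was set to a floor of 3 counts over the library when a bound was given. Shares of wells were read after thinning to 1400 counts. The ratio and interval code was tested on simulated data. Python 3.11.15, numpy 2.4.6, scipy 1.17.1, pandas 2.3.3 and edgeR 4.0.16 (TMM factors as an alternative) were used.

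The rod genes, the gene lists and the rules were chosen with earlier results of these data known. Named genes were the 7 rod genes, the 3 cone genes, listed photoreceptor genes at least 2-fold apart with at least 20 counts over both libraries, and the 5 genes whose wells were most alike (phi coefficient, genes in at least 10% of thinned wells of at least 2 libraries). Results of some listed genes are not reported here. The alternatives are given in the closing section.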

Additional observations from a re-analysis of the deposited data

Results flagged for a closer look

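The wells left out by the filter held more rod transcript per count than the kept wells of the mutant libraries. In 10 left-out wells of Pde6ccpfl1 the 7 rod genes had 28 of 8245 counts, which is 3396 CPM (2257 to 4908), against 383 CPM in the kept wells and against 139 CPM, 1 count, in the 9 left-out wells of wildtype. Gnat1 had 9 of these counts (1092 CPM) and Gnb1 had 8 (970.3 CPM). A single left-out well of Pde6ccpfl1 held 21 of the 28, namely 8 of Gnat1, 8 of Gnb1 and 5 of Prph2, among 676 counts. It had 1 count of Gnat2. In 6 left-out wells of Cnga3-/- the rod genes had 12 of 4749 counts, which is 2527 CPM (1306 to 4414), and Prph2 had 6 of them (1263 CPM). Of the 12, 10 were in a well of 803 counts that also held 27 counts of Opn1sw. These values come from wells outside the comparisons of the report and were not tested.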

How the results depend on the processing

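No paired analysis was possible because there is 1 library per genotype, and for the same reason no replicate could be left out. Of the alternatives tried, 103 of 134 for the main results and 189 of 194 for single genes moved the value by less than its counting error (for numbers of genes, by less than 1.5 times), and 0 reversed a direction that the interval had set. On the log2 scale, the rod sum of Pde6ccpfl1 over wildtype was 2.46 with each well thinned and 2.09 without Sag, beside 1.42. That of Cnga3-/- over wildtype was 2.86 as a mean over wells, 3.05 thinned and 2.68 without Sag, beside 1.89, and that of Pde6ccpfl1 over Cnga3-/- was -0.96 as a mean over wells, beside -0.47. Reep6 in Pde6ccpfl1 over Cnga3-/- was -3.06 as a mean over wells and 0.70 without the 3 richest wells, an alternative chosen after seeing the data. The share of wells with a rod count in Pde6ccpfl1 was 78.7% unthinned, 21.3% at 1000 counts and 63.4% at 2500 counts. Unthinned it was 68.6% in Cnga3-/- and 42.3% in wildtype, which had 30.8% at 2500 counts. Among Pde6ccpfl1 wells with a cone count it was 85.7% unthinned and 82.4% at 2500 counts, and among those without, 63.2% unthinned and 11.4% at 1000 counts. Among Cnga3-/- wells with a cone count it was 68.3% unthinned and 43.5% at 2500 counts, and among those without, 69.0% and 55.6%, so that its direction between these wells turned. Among the wildtype wells, all without one, it was 42.3% and 30.8%. CPM per kilobase was 17.4 in Pde6ccpfl1 with no well filter and 16.1 in Cnga3-/- with 1000 genes and 15% mitochondrial counts. Without length scaling the mean per gene was 54.7 CPM in Pde6ccpfl1, 75.8 in Cnga3-/- and 20.4 in wildtype. With at least 50 counts and a count in 20% of wells, 163 genes were at least 2-fold higher and 244 lower in Pde6ccpfl1 over wildtype, beside 1130 and 1238. In Cnga3-/- over wildtype they were 193 and 202, beside 1248 and 1166, and in Pde6ccpfl1 over Cnga3-/- 109 and 158, beside 795 and 1111. This filter tests fewer genes. The causes of the other moves were not tested. The share of rod counts among wildtype wells with a cone count had no value, since there was no such well. Median-of-ratios factors moved the median of all genes in Cnga3-/- over wildtype to 0.01, beside -0.13, and TMM factors moved that in Pde6ccpfl1 over wildtype to -0.01, beside -0.11. Depth limits all of this: most wells hold 0 or 1 rod count.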
